A study of Mus musculus with 6 samples.

Results

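The genes examined here encode the subunits of the proteasome, its activators and a few proteins that help to assemble it. They were taken as all genes whose symbol begins with Psma, Psmb, Psmc, Psmd or Psme followed by a digit and that were named alone by at least 1 probe set, which gave 45 of 19938 genes on the array. By symbol, 19 belonged to the core particle (8 Psma and 11 Psmb), 6 to the ATPase base (Psmc), 14 to Psmd, which the working classification treats as the lid, and 4 to the activators (Psme). The remaining 2, Psmc3ip and Psme3ip1, carry matching letters but encode proteins that bind a subunit. Expression was compared between starry-sky tumor-associated macrophages (SS-TAMs) and germinal center macrophages (GCMs), the macrophages of normal germinal centers that also take up dying B cells. SS-TAMs were cut by laser out of subcutaneous BL2 tumors (BL2 is a Burkitt's lymphoma line of human origin) carried by female Balb/c SCID mice and collected at 1.44 cm2, and were chosen by CD68 staining. GCMs were cut from germinal centers of female CSF1R EGFP transgenic Balb/c mice that had received 2 doses of sheep red blood cells. All mice were 6 to 12 weeks old, and each of the 3 arrays per group (Affymetrix Mouse Gene 1.0, labelled as biological replicates) was made from 1000 captured macrophages. SCID mice lack mature T and B cells, and host strain, tissue and selection of the cells cannot be told apart from the group. The GCM tissue is given as spleen in the tissue label and as lymph nodes in the source label.

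The proteasome is the main protease of the cytosol and nucleus and degrades proteins tagged with ubiquitin. Its core particle is a barrel of stacked rings, with alpha subunits (Psma genes) on the outside and beta subunits (Psmb genes) inside, and the beta subunits Psmb5, Psmb6 and Psmb7 carry the protease sites. In lymphocytes, in antigen-presenting cells and after interferon gamma, Psmb8, Psmb9 and Psmb10 are built in instead of Psmb5, Psmb6 and Psmb7, which gives the immunoproteasome and alters the peptides that reach MHC class I. The regulatory particle, made of a base and a lid, recognizes, unfolds and feeds in the substrate. PA28 alpha and beta (Psme1 and Psme2) form another, interferon-inducible cap.

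Transcripts of 11 of 19 core particle genes and of both genes of the PA28 alpha and beta cap were lower in SS-TAMs. Of the 20 Psmc and Psmd genes, 3 were lower. With limma and Benjamini-Hochberg adjustment across the 19938 genes (threshold 0.05), 16 of the 45 genes were lower and none was higher. Over all genes 4.74% were lower and 5.16% higher. At an unadjusted limma p under 0.05, 22 of the 45 were lower and 3 higher, against 10.4% and 15.2% of all genes. By class, 11 of 19 core genes, 2 of 6 Psmc genes, 1 of 14 Psmd genes and 2 of 4 activator genes were lower. The median log2 fold change (SS-TAM minus GCM) was -0.93 for the core, -0.28 for Psmc, 0.03 for Psmd and -0.86 for the activators, against 0.04 over all genes. The difference between these classes was not tested. After quantile normalization, described below, the core genes called lower were Psma3, Psma6, Psma7, Psmb8 and Psmb10. The core genes Psmb4 and Psmb6 were then called higher. The count of 16 fell to 10 without GCM replicate 1, to 8 without GCM replicate 2 or 3, and to between 11 and 12 without any 1 SS-TAM array. Psma6, Psma7, Psmb8, Psmd10, Psme1 and Psme2 passed the test in the main comparison and under each of 16 alternatives, one of which, scaling to core macrophage markers, gave all 45 members and 98.7% of all genes as lower.

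**Figure D1:**
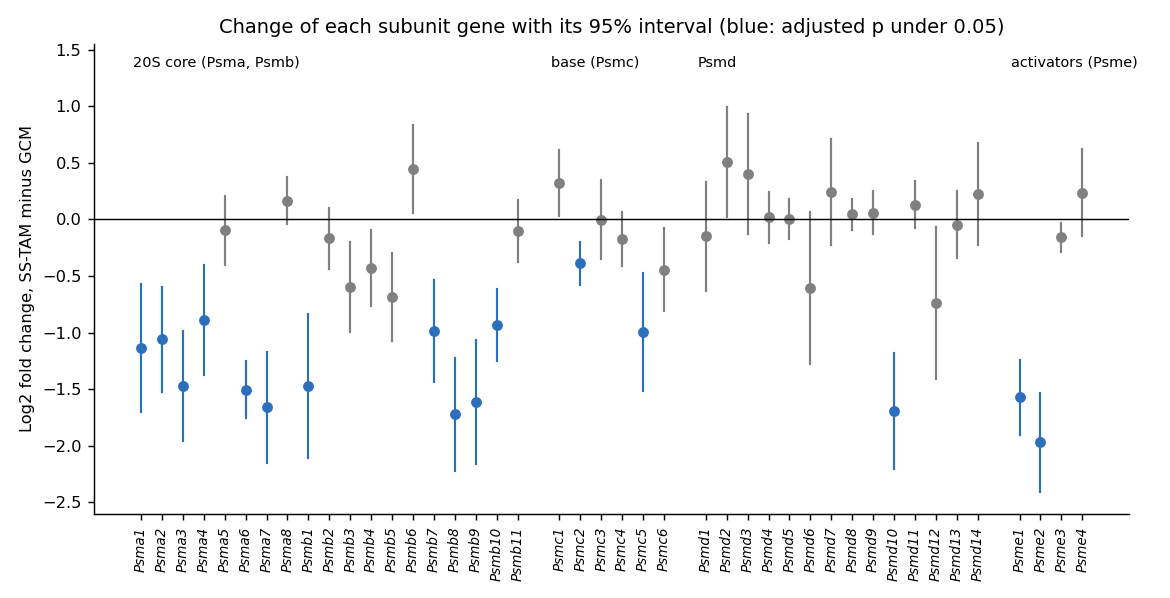
Log2 fold change (SS-TAM minus GCM, vertical axis) of 43 genes, by class along the horizontal axis; points are limma estimates from 3 against 3 arrays, bars their 95% intervals, and blue marks an adjusted p under 0.05. The 16 blue points lie between -1.97 (Psme2) and -0.39 (Psmc2), and 13 of the 14 Psmd genes are grey.

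Level and background bear on these counts. Values are intensities in linear units, the median of all values was 6.3, and intensities of different genes cannot be compared with each other. Array medians were 6.1 to 6.5, while the 99th percentile of an array lay between 242 and 284 for SS-TAMs but between 614 and 664 for GCMs. Bright genes were more often lower in SS-TAMs. Of 894 genes with a mean intensity of 50 and above, 37.4% were lower and 13.2% higher, with a median log2 fold change of -0.45. Of the 24 members in that range, 13 (54.2%) were lower, with a median of -0.99. In that range 9 of 15 core genes were lower (median -1.06), as were 2 of 6 Psmc and Psmd genes (median -0.19). Between 10 and 50, 9.84% of 4472 genes and 3 of 15 members were lower. The part of brightness in the member counts was not tested. After quantile normalization, which gives all arrays the same spread of values, 8 members were lower and 4 were higher. Those 8, Psma3, Psma6, Psma7, Psmb8, Psmb10, Psmd10, Psme1 and Psme2, were all among the 16.

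**Figure D2:**
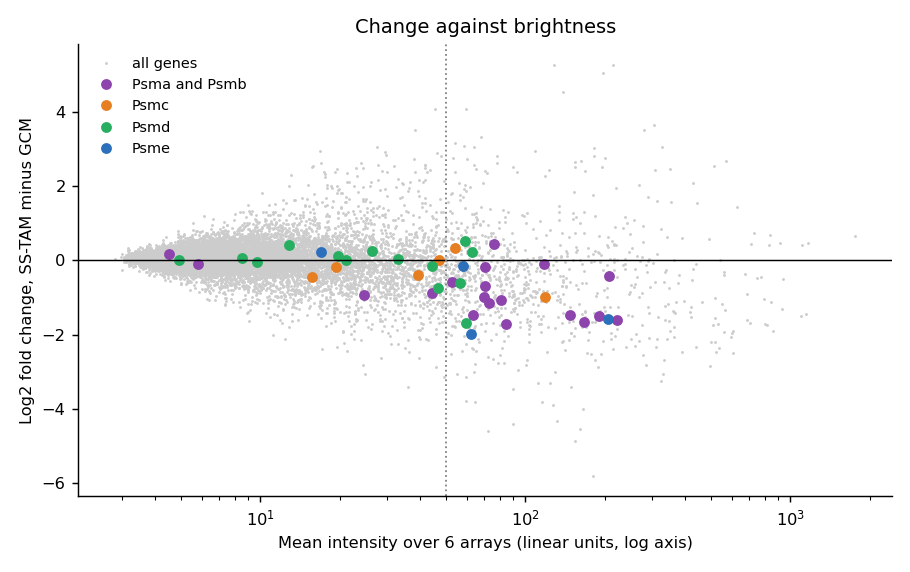
Log2 fold change (SS-TAM minus GCM, vertical axis) against mean intensity over 6 arrays (horizontal log axis, linear units); grey points are 19938 genes, colored points 43 proteasome genes by class, and the dotted line marks an intensity of 50. Right of the line the median of all genes is -0.45 and that of the members -0.99.

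The captured cells carried macrophage transcripts in both groups, and lymphocyte transcripts differed strongly between them. Cd68, used to choose the SS-TAMs, averaged 582 ± 88.7 on SS-TAM arrays against 72.4 ± 25.0 on GCM arrays (SD, n = 3). The summed intensity of 17 core macrophage markers ranged from 2859 to 3665 in SS-TAMs and from 1273 to 1434 in GCMs, and 12 of the 17 were higher. That of 16 T cell markers was 205 to 247 against 1238 to 1648, with 9 of 16 lower in SS-TAMs. That of 14 B cell markers was 159 to 177 against 575, 216 and 235 on GCM replicates 1, 2 and 3, with 2 of 14 lower. Sums for 10 dendritic cell markers were 91.5 to 114 against 157 to 240, with 4 of 10 lower. Sums over 12 fibroblast and pericyte markers ran the other way. They were 1372, 729 and 843 on SS-TAM replicates 1, 2 and 3 against 448, 414.5 and 539 on GCM replicates. Sparc, at 831, 439.9 and 523.2 against 105.8, 74.7 and 142.7, was the largest part of each SS-TAM sum, and without it the sums overlap. Of the 12, 3 were called higher, and 3 had a log2 fold change below 0 (Dcn -0.19, Thy1 -0.23 and Rgs5 -0.95). The T cell gene Cd3g averaged 6.33 ± 0.15 in SS-TAMs, at the median of all values, against 355 ± 70.1 in GCMs (SD, n = 3). Lymphocytes also express the immunoproteasome, and the part of lymphocytes, dendritic cells and fibroblasts in the results below was not tested. In captured tissue, fewer cells of a type and less RNA per cell cannot be told apart. The lymphoma cells around the SS-TAMs were human, whereas the arrays are made for mouse. How far mouse probe sets read human RNA, for markers or for proteasome genes, was not tested. The SS-TAM lymphocyte sums therefore cannot be read as the amount of lymphoma cell RNA captured.

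Psmb8, Psmb9 and Psmb10, the inducible catalytic subunits, were all lower in SS-TAMs. Psmb8 (LMP7), the inducible subunit with chymotrypsin-like activity, was at 42.3, 29.2 and 47.7 on the SS-TAM arrays and at 111.4, 131.5 and 144.4 on the GCM arrays. Every SS-TAM value lay below every GCM value, and the difference was 3.30-fold (log2 fold change -1.72 ± 0.20, SE, limma adjusted p = 0.0072). Psmb9 (LMP2) was at 147.7, 84.6 and 101.1 against 285.6, 332.4 and 380.5. It too showed no overlap, and was 3.06-fold lower in SS-TAMs (limma adjusted p = 0.011). Psmb10 (MECL-1) was at 14.6, 16.8 and 19.5 against 31.1, 29.7 and 36.1. Its difference was smaller, at 1.91-fold (log2 fold change -0.93, limma adjusted p = 0.012). Psmb9 did not pass without SS-TAM replicate 3 or GCM replicate 2 or 3, nor Psmb10 without GCM replicate 3 (limma adjusted p up to 0.063 and 0.051). After quantile normalization Psmb9 did not pass either (log2 fold change -0.65, limma adjusted p = 0.22), whereas Psmb8 (-1.30) and Psmb10 (-0.83) did. Over all genes, 11.5% had all SS-TAM values below all GCM values, and among the 45 members 23 did.

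The constitutive catalytic subunits did not move as a block. Psmb5, the constitutive chymotrypsin-like subunit, was at 65.1, 44.1 and 53.7 in SS-TAMs and 95, 77.5 and 86.9 in GCMs. The groups did not overlap, but the test was just missed (log2 fold change -0.68, limma adjusted p = 0.051). Psmb6, the caspase-like subunit, was at 100.9, 80.0 and 83.0 against 73.0, 69.4 and 52.3. It was one of 2 members with every SS-TAM value above every GCM value (log2 fold change 0.45, limma adjusted p = 0.15), and over all genes 18.5% had that order. After quantile normalization Psmb6 passed as higher (log2 fold change 0.96, limma adjusted p = 0.018), and Psmb5 was at -0.26. Psmb7, the trypsin-like subunit, was at 49.3, 35.5 and 56.7 against 82.4, 93.2 and 100.3, 1.98-fold lower in SS-TAMs (limma adjusted p = 0.028). Psmb7 did not pass without SS-TAM replicate 1 or any 1 GCM array (limma adjusted p up to 0.11), nor after quantile normalization.

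Each inducible subunit was then set against the constitutive subunit whose place it takes, as the difference of their log2 intensities on the same array. Such a difference does not depend on a scaling of the whole array by a constant, and only its shift between groups can be read. A difference in the spread of values between arrays does not cancel in it. The difference of Psmb9 and Psmb6 was 0.55, 0.08 and 0.28 on SS-TAM arrays and 1.97, 2.26 and 2.86 on GCM arrays. The shift was -2.06 on the log2 scale, or 4.17-fold, with no overlap (exact permutation test, two-sided, p = 0.1, the smallest that 3 against 3 arrays can give). For Psmb8 and Psmb5 the differences were -0.62, -0.59 and -0.17 against 0.23, 0.76 and 0.73. The shift was -1.04, or 2.05-fold, again with no overlap (exact permutation p = 0.1). For Psmb10 and Psmb7 they were -1.76, -1.08 and -1.54 against -1.41, -1.65 and -1.47. Here the groups overlapped and the shift was 0.05 (exact permutation p = 0.9), the genes being 1.91-fold and 1.98-fold lower in SS-TAMs. Adjusted over the 3 pairs, the p-values were 0.15, 0.15 and 0.9. After quantile normalization the shifts were -1.61 for Psmb9 and Psmb6, -1.04 for Psmb8 and Psmb5 and -0.23 for Psmb10 and Psmb7.

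**Figure D3:**
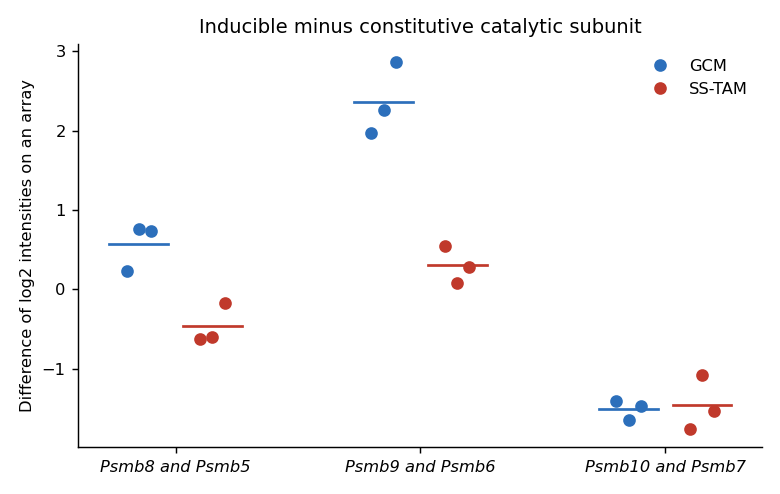
Difference of log2 intensities (vertical axis) between an inducible catalytic subunit and its constitutive counterpart on each of 3 GCM (blue) and 3 SS-TAM (red) arrays; bars are group means. The first and second pairs shift down by 1.04 and 2.06 in SS-TAMs without overlap, and the groups of the last pair overlap; heights of different pairs cannot be compared.

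Start regions are shown for the immunoproteasome and PA28 genes with the largest decreases and for Psmb6, which did not move with them. Each window runs from 250 bases before to 50 bases after a RefSeq start on GRCm38.p6, 5′ to 3′ on the strand of the gene. Capitals mark matches, on either strand, to an interferon response element (GAAA, any 2 bases, GAAA), a gamma activated site (TTCNNNGAA), the core of an antioxidant response element (TGANNNNGC) or a CCAAT box (CCAAT). Psme2 has 2 listed starts, of which the first is shown.
Psmb8, chr17:34197945-34198244, plus strand: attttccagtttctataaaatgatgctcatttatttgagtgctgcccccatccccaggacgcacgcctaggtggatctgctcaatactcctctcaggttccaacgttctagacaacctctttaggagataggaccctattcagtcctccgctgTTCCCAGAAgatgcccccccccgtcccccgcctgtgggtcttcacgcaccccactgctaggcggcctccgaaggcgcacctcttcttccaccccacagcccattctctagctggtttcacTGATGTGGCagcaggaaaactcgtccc
Psmb9, chr17:34187281-34187580, minus strand: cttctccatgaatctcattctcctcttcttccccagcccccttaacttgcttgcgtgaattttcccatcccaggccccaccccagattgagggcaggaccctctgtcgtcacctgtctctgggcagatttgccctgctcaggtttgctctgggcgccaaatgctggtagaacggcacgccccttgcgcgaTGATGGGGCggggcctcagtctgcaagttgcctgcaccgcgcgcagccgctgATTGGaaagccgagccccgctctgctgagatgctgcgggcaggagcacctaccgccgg
Psme1, chr14:55578244-55578543, plus strand: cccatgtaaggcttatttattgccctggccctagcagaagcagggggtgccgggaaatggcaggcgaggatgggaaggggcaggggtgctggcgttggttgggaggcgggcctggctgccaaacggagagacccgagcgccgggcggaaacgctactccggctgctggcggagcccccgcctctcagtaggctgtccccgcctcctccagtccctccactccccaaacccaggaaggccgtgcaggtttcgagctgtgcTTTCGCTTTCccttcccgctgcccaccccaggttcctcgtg
Psme2, chr14:55591052-55591351, minus strand: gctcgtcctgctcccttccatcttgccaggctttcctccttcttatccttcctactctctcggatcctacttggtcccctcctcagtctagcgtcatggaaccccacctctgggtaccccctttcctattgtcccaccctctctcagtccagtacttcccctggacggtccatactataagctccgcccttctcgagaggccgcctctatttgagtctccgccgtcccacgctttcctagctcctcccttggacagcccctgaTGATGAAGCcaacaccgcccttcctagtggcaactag
Psmb6, chr11:70525107-70525406, plus strand: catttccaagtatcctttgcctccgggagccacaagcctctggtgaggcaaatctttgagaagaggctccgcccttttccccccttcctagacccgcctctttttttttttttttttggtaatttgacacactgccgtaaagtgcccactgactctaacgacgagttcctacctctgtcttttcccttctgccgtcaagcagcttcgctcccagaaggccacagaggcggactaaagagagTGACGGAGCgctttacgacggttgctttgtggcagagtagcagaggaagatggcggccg
Windows were found for 38 of the 45 genes, 42 windows in all. The interferon response element letters stood in 4 of the 42 (9.52%; Psmb3, Psmd4, Psmd9 and Psme1) and in 3.44% of all 32851 windows. Only Psme1 of these genes was lower in SS-TAMs. In Psme1 the match begins 10 bases into the transcript, and in Psmb8 a gamma activated site match begins 97 bases before the start. The gamma activated site letters were in 4.76% of member windows and 8.3% of all windows. The antioxidant response element core was in 59.5% of member windows against 41.3% of all windows, and CCAAT in 38.1% against 37.4%. Among windows of genes that were lower, 9 of 17 held the antioxidant core, against 16 of 25 of the others, and 8 of 17 held CCAAT, against 8 of 25. Member windows had a median GC content of 58.2%, against 52.7% over all windows. These matches are letters only and were not tested for use.

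Among the alpha subunits, which form the outer rings and the gate of the core, 6 of 8 were lower in SS-TAMs. Psma7 was at 75.9, 61.5 and 107.2 in SS-TAMs and 242.0, 259.6 and 251.3 in GCMs, 3.16-fold lower (limma adjusted p = 0.0077). Psma6 was at 86.7, 99 and 111.4 against 275.9, 295.4 and 267.7, 2.84-fold lower, with the smallest adjusted p among the members (0.0015 from limma). Both kept well apart from the GCM range on each array. Psma3 was at 70.4, 68.3 and 93.8 against 231.6, 251.5 and 166.3, a difference of 2.78-fold. Its other 2 probe sets gave log2 fold changes of -1.36 and -1.62 beside -1.47. After quantile normalization these decreases were smaller, with log2 fold changes of -0.68 for Psma6, -0.90 for Psma7 and -0.77 for Psma3, and still passed. Psma1 (38.5, 48.7 and 47.1 against 105.6, 127.0 and 70.1) was 2.20-fold lower. Psma2 (45.9, 43.8 and 70.9 against 109.4, 109.2 and 108.2) was 2.09-fold lower. Psma4 (38.3, 22.8 and 33.6 against 62.1, 56.2 and 53.2) was 1.85-fold lower. The SS-TAM arrays of these genes lay below the GCM arrays throughout, but Psma1, Psma2 and Psma4 each failed the test when 1 array was removed in 4 or more of 6 cases (limma adjusted p up to 0.12, 0.10 and 0.15), and Psma3 did so without GCM replicate 2 (adjusted p = 0.051).

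The other alpha genes did not pass. Psma5 was at 121.1, 121.1 and 98.6 against 107.0, 136.7 and 121.1, with overlapping groups and a log2 fold change of -0.10 (95% interval -0.41 to 0.21). Its second probe set, at 24.7, 29 and 25.4 against 30, 35.6 and 30.7, gave -0.28 without overlap. After quantile normalization the log2 fold change of Psma5 was 0.61 (limma adjusted p = 0.096). Psma8, which takes the place of Psma7 in the proteasome of the testis, was at 4.8 ± 0.46 against 4.27 ± 0.15 (SD, n = 3), below the median of all values in both groups. Psmb11, which is specific to the thymus, was likewise at 5.63 ± 0.80 against 6.00 ± 0.17. Neither level can be read as presence or absence, as no detection calls were used.

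The beta subunits without a protease site showed differences of unequal size. Psmb1 was at 26.7, 48.6 and 27.7 in SS-TAMs and 88.7, 108.5 and 79.4 in GCMs, 2.77-fold lower (log2 fold change -1.47 ± 0.26, SE, limma adjusted p = 0.024). It did not pass when 1 array was removed, other than SS-TAM replicate 2 (adjusted p up to 0.10). Psmb3 (35.3, 40 and 51.7 against 71.9, 59.2 and 59.2) and Psmb4 (174.2, 153.0 and 204.0 against 234.6, 210.7 and 269.1) showed no overlap and missed the threshold (limma adjusted p = 0.077 and 0.12). A second probe set of Psmb3 gave a log2 fold change of -0.27 with overlapping groups. The log2 fold change of Psmb4 was -0.43 and turned to 0.57 after quantile normalization, where it passed the test (adjusted p = 0.0435). Psmb2 was at 56.7, 71.4 and 71.0 against 78.1, 69.4 and 75.2, with a log2 fold change of -0.17 (95% interval -0.44 to 0.10). The groups of Psmb2 overlapped.

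**Figure D4:**
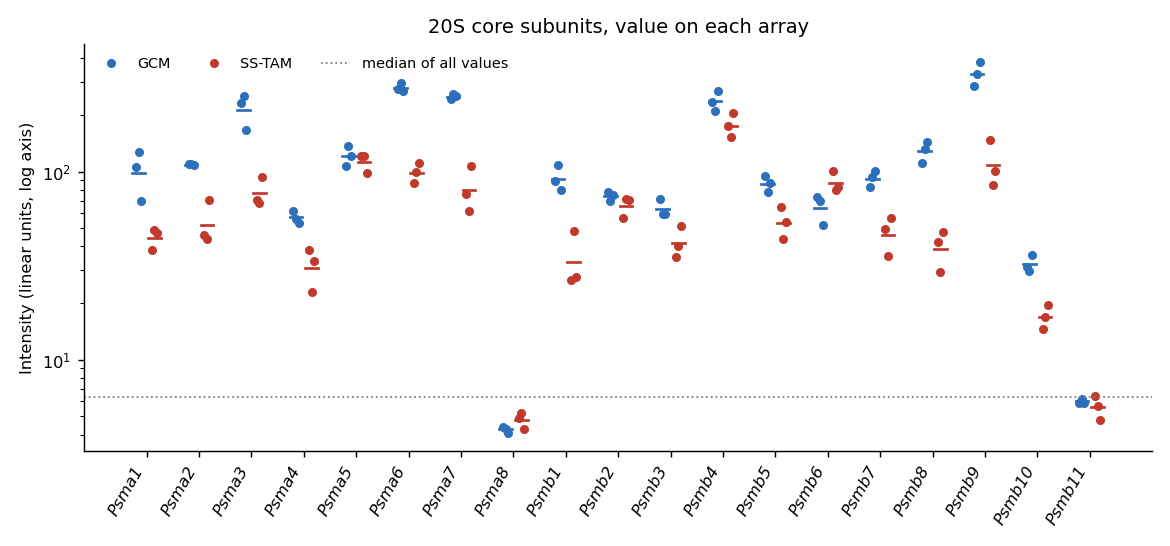
Intensity in linear units (vertical log axis) of the 19 core particle genes on each of 3 GCM (blue) and 3 SS-TAM (red) arrays; bars are geometric means and the dotted line is the median of all values, 6.3. SS-TAM points lie below all GCM points for Psma1 to Psma4, Psma6, Psma7, Psmb1, Psmb3 to Psmb5 and Psmb7 to Psmb10, and above them for Psmb6.

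In the regulatory particle 3 of 20 Psmc and Psmd genes were lower and none higher, against 4.74% and 5.16% of all genes. Of these 20, 6 had a mean intensity of 50 and above, as had 15 of the 19 core genes. The part of brightness in the contrast with the core was not tested. Of the 6 ATPases of the base, Psmc5 was at 74.9, 75.3 and 82.3 in SS-TAMs and 212.4, 118.0 and 145.7 in GCMs, 1.99-fold lower (limma adjusted p = 0.041). Psmc2 was at 32.8, 34.8 and 34.1 against 42.2, 48.9 and 42.2, a difference of 1.31-fold with little spread among SS-TAMs (limma adjusted p = 0.034). After quantile normalization Psmc5 was at -0.37 and Psmc2 at -0.16 on the log2 scale, and neither passed. Neither call was stable, as Psmc5 failed without any 1 SS-TAM array or GCM replicate 3, and Psmc2 without any 1 array (adjusted p up to 0.125 and 0.088). Psmc1 was at 68.5, 54.3 and 58.5 against 54.2, 44.6 and 45.9, the other member whose SS-TAM values all lay above the GCM values (log2 fold change 0.32, limma adjusted p = 0.16). After quantile normalization Psmc1 passed as higher (0.68, limma adjusted p = 0.014), while its second probe set gave -0.22 without that step. Psmc3 had a log2 fold change of -0.0035 (95% interval -0.35 to 0.34) and Psmc4 of -0.18, with overlapping groups. Psmc6 was at 14.1, 11.4 and 14.3 against 21.1, 18.1 and 15.2, without overlap (limma adjusted p = 0.13).

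The only Psmd gene that passed was Psmd10, which encodes gankyrin, a chaperone of base assembly and not a subunit of the finished particle. It was at 22.2, 27.5 and 35.2 in SS-TAMs and 75.3, 109.5 and 87.6 in GCMs, 3.23-fold lower (log2 fold change -1.69 ± 0.21, SE, limma adjusted p = 0.0083). The other base chaperones with a Psmd name, Psmd5 and Psmd9, were close to the median of all values in both groups, at 4.93 against 4.90 and 8.70 against 8.33. Their log2 fold changes were 0.01 and 0.06.

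None of the 8 genes for stable lid subunits that are named Psmd (Psmd3, Psmd6, Psmd7, Psmd8, Psmd11, Psmd12, Psmd13 and Psmd14) passed in either direction. At an unadjusted limma p under 0.05, Psmd12 alone of these 8 was lower. Psmd14, the deubiquitinase of the lid, was at 56.5, 62.4 and 85.6 in SS-TAMs and 56.8, 66.7 and 49.9 in GCMs, a log2 fold change of 0.22 (95% interval -0.23 to 0.68). Psmd8 was at 32.7, 33.9 and 33.9 against 31.2, 32.3 and 33.9, with the narrow interval of -0.09 to 0.18. For these genes the groups overlapped. Psmd12 (44.1, 23.2 and 39.6 against 67.8, 46.4 and 59.6) and Psmd6 (57.7, 28.6 and 52.2 against 72.2, 70.2 and 59.9) had no overlap, with log2 fold changes of -0.74 and -0.61 and SS-TAM replicate 2 the lowest array for both (limma adjusted p = 0.16 and 0.23). Psmd3, Psmd7, Psmd11 and Psmd13 lay between -0.05 and 0.40 on the log2 scale. Psmd1, Psmd2 and Psmd4, which belong to the base although they have no ATPase, had log2 fold changes of -0.15, 0.51 and 0.02. Psmd2, the largest positive value of all members, was at 74.4, 54.8 and 79.4 against 60.6, 42.1 and 44.0 (limma adjusted p = 0.18). After quantile normalization Psmd2 passed as higher (0.88, limma adjusted p = 0.016), and its second probe set gave 0.55. The groups of Psmd2 overlapped.

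Sem1 (DSS1), a small lid protein without a Psm name, had been listed with the associated proteins and fell 2.73-fold. It was at 82.4, 98.2 and 82.9 in SS-TAMs and 256.1, 240 and 221.2 in GCMs (limma adjusted p = 0.0015). Its log2 fold change of -1.45 was below that of each of the 8 stable lid genes named Psmd, the lowest of which was -0.74, and the difference was not tested.

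Of the activators, Psme1 and Psme2 were lower, whereas Psme3 and Psme4 did not pass. Psme1 (PA28 alpha) was at 106.2, 90.8 and 112.7 in SS-TAMs and 300.3, 265.9 and 356.5 in GCMs, 2.97-fold lower (limma adjusted p = 0.0027). Psme2 (PA28 beta) was at 28.7, 21.2 and 25.7 against 79.1, 101.1 and 117.1. At 3.91-fold (log2 fold change -1.97 ± 0.18, SE, limma adjusted p = 0.0032) this was the largest decrease of the 45 genes. After quantile normalization the log2 fold change was -0.69 for Psme1 and -1.66 for Psme2, and both passed. A further probe set, which names Psme2 together with its paralog Psme2b and was not used, had a log2 fold change of -1.68. Psme3 (PA28 gamma), the nuclear activator, was at 56.4, 53.5 and 55.6 against 62.8, 59.7 and 62.2. These groups did not overlap, yet the difference was 1.12-fold and did not pass (limma adjusted p = 0.13). Psme4 (PA200) was at 23.1, 16.1 and 15.9 against 15.9, 15.8 and 14.4 (log2 fold change 0.24, 95% interval -0.15 to 0.62). The proteins that only bind a subunit did not pass either, with Psmc3ip at 7.17 ± 1.02 against 5.90 ± 0.36 and Psme3ip1 at 22.2 ± 3.42 against 21.2 ± 1.76 (SD, n = 3).

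In the RefSeq gene order, Psmb9 and Psmb8 alternate with the peptide transporter genes Tap1 and Tap2 inside the MHC, and Psme1 and Psme2 flank Emc9. The neighbors did not share the decrease. Tap1 was at 16.7, 8.2 and 12.3 in SS-TAMs and 12.2, 11.2 and 12.6 in GCMs, a log2 fold change of -0.01 (95% interval -0.63 to 0.61). Tap2 was at 14.6, 14.7 and 15.2 against 14.6, 13.5 and 14.9, with a log2 fold change of 0.05 (95% interval -0.10 to 0.20). The interval of each ends above the log2 fold changes of Psmb8 (-1.72) and Psmb9 (-1.61). Emc9, a gene of the endoplasmic reticulum membrane complex, was at 10.3, 11.9 and 10.1 against 8.6, 7.9 and 8.6 (log2 fold change 0.36, limma adjusted p = 0.052). Tap1, Tap2 and Emc9 were at less than 17 on every array, against a median of all values of 6.3.

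**Figure D5:**
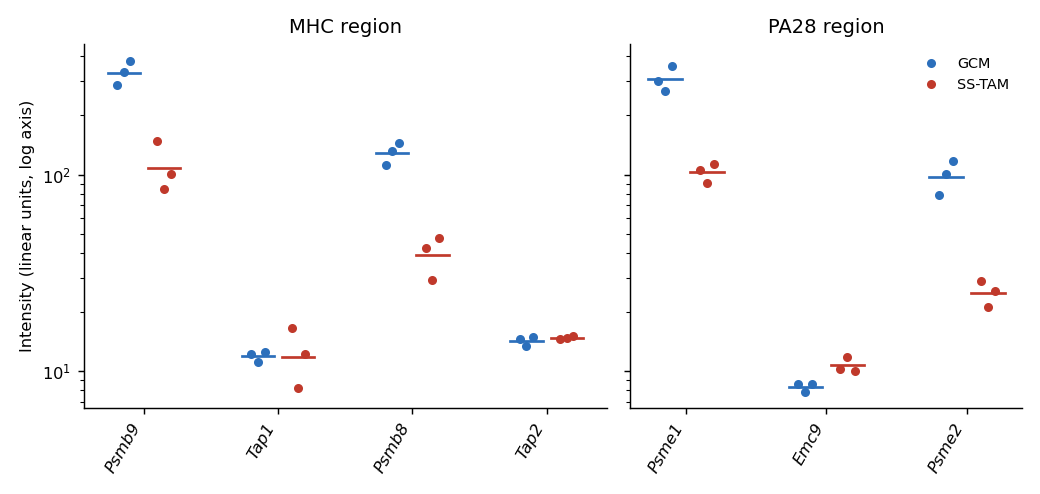
Intensity in linear units (vertical log axis) of neighboring genes, in RefSeq order from left to right, on 3 GCM (blue) and 3 SS-TAM (red) arrays; bars are geometric means. Psmb9, Psmb8, Psme1 and Psme2 separate without overlap and are 2.97 to 3.91-fold lower in SS-TAMs, whereas Tap1 and Tap2 overlap.

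Genes that build, regulate or feed the proteasome went both ways. Of 5 measured assembly chaperones of the core, Pomp and Psmg4 were lower and none was higher, against 4.74% and 5.16% of all genes. Pomp and Sem1 were above 50 on every array, and 37.4% of all genes with a mean intensity of 50 and above were lower. Values of the listed genes under the alternatives are not given here. Pomp, which drives the joining of core particle precursors, was at 70.3, 52.2 and 53.9 in SS-TAMs and 164.1, 107.7 and 117.0 in GCMs, 2.19-fold lower (limma adjusted p = 0.023). Psmg4, part of a chaperone pair for the alpha ring, averaged 9.77 against 23.4 (log2 fold change -1.24, limma adjusted p = 0.032). Of 11 inhibitors and associated proteins, 3 were lower and none higher. Besides Sem1 these were Uchl5, a deubiquitinase bound to the regulatory particle, at 38.7 ± 1.91 against 62.2 ± 3.06 (SD, n = 3), and Txnl1, a thioredoxin-like protein of the regulatory particle (log2 fold change -0.67). Psmf1, an inhibitor of the core particle, was at 8.80 ± 0.56 against 8.83 ± 0.12 (SD, n = 3).

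The transcription factor gene Nfe2l1 (NRF1), which drives proteasome genes when the proteasome is inhibited, rose in SS-TAMs. It was at 70.1, 50.5 and 59.1 against 37.9, 26.9 and 30.7, 1.88-fold higher without overlap (limma adjusted p = 0.028). It was the one gene called among 6 measured in its list. Of 9 genes of ubiquitin activation and transfer and of the p97 complex, 3 were higher and 1 lower, against 5.16% and 4.74% of all genes. The higher ones were the ubiquitin-conjugating enzyme genes Ube2l3 (log2 fold change 1.17), Ube2d3 (0.75) and Ube2n (0.68). These have 3, 3 and 2 probe sets, and only the brightest of each was used. The ubiquitin-activating enzyme gene Uba6 was lower (-0.68), at 6.23 against 9.83, near the median of all values in SS-TAMs.

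Genes of MHC class I peptide loading and of the interferon gamma response gave few calls, as did all genes (5.16% higher, 4.74% lower). In the loading list 1 of 10 measured genes was higher and 1 lower. The higher one was Calr (calreticulin), a chaperone of the loading complex, at 177 ± 7.54 against 114 ± 0.06, and the lower one Tapbpl, at 6.37 ± 0.71 against 9.73 ± 0.12 (SD, n = 3). B2m, the light chain of MHC class I, was at 568.0, 619.1 and 790.3 against 887.0, 820.0 and 980.6, without overlap (log2 fold change -0.45, limma adjusted p = 0.11). Of 11 measured genes of the interferon gamma response, 1 was higher and none lower, while at an unadjusted limma p under 0.05 Gbp3 and Gbp4, which encode induced GTPases, were lower (adjusted p = 0.19 for each) and Cxcl10 was higher. The gene that passed was Ifngr2, a receptor chain. Ifngr2 was at 36.5, 48.6 and 37.3 against 16.0, 17.8 and 18.3, 2.33-fold higher (limma adjusted p = 0.0050). The interferon-induced genes Irf1 and Cxcl9 had log2 fold changes of -0.08 and -0.20, with overlapping groups (limma adjusted p = 0.70 and 0.63). The median of this list was -0.20 and that of the loading list -0.02, against 0.04 over all genes.

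For each of the 16 called genes every SS-TAM array lay below every GCM array, which calling on the same arrays makes likely. That order held for 23 of the 45 members and 11.5% of all genes. Of the 16 called genes, SS-TAM replicate 3 was the highest SS-TAM array for 10 and the lowest for none, while replicates 1 and 2 were lowest for 7 and 9. Among GCM arrays, replicates 1, 2 and 3 were lowest for 7, 3 and 7 of the 16. The number of arrays limits the precision of every value given here.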

How the data were processed

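The authors hybridized amplified RNA of 1000 laser-captured macrophages per sample to Affymetrix Mouse Gene 1.0 arrays and deposited 1 intensity per probe set and array, on a linear scale and rounded to 1 decimal. The submitters' processing notes name RMA and limma; for versions, settings and genome build: not given in the sources used here. Log2 of the intensities was taken without further scaling. Of 28944 probe sets, 21789 named 1 gene, 1621 named several and 5534 are unnamed here; symbols of 21698 were matched by gene ID to RefSeq (GRCm38.p6). Where a gene had more than 1 probe set, that with the highest mean log2 intensity was used. Some subunits have paralogs or pseudogenes (Psme2b, and RefSeq pseudogenes of Psma5, Psmb5, Psmb6 and Psmb7), and shared probe sequence was not tested.

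SS-TAM and GCM arrays (3 and 3, labelled biological replicates) entered limma (version 3.58.1, under R 4.3.3) as 2 groups without covariates, through lmFit and a two-sided eBayes test, and p-values of all 19938 genes were adjusted by Benjamini-Hochberg, with 0.05 as threshold. The procedure was also run on simulated data without a difference in spread between arrays, so that run does not bear on the spread seen here. A fold is the ratio of the geometric means of the groups. Means ± SD were taken over linear intensities. Catalytic pairs were compared by an exact permutation test. The members, gene lists and motifs were chosen with earlier results of these data known. All members are named; of each related list, up to 4 called genes were to be named. Tap1, Tap2, Emc9, Psmf1, Irf1, Cxcl9, Cxcl10, Gbp3, Gbp4 and B2m, the split of Psmd genes by role, the brightness classes and the windows printed were chosen after values were seen. Alternatives covered scaling, dim probe sets, choice of probe set, variance model, array weights, replicate block, fold and each array left out. Listed genes without a probe set that names them alone were not analysed here, among them H2-K1, H2-D1, Adrm1 and Ubb.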

Additional observations from a re-analysis of the deposited data

How the results depend on the processing

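All 16 genes that were lower kept their direction under the 16 alternatives, and 196 of these 256 values also passed the threshold. Both counts include alternatives that could not fail. The intensity trend, robust variance, replicate block, 2-fold criterion and removal of dim probe sets left the log2 fold changes of these genes as they were. Scaling to core macrophage markers gave 98.7% of all genes as lower. The count of lower members was 16 in the main comparison, 8 after quantile normalization and 45 after scaling each array by its core macrophage markers, and without 1 array it lay between 8 and 12. Under the other alternatives it lay between 11 (at least 2-fold) and 18 (median centring). The count of higher members was 0, and 4 after quantile normalization (Psmb4, Psmb6, Psmc1 and Psmd2). Without 1 array it was 0 to 1, the 1 being Psmc3ip without SS-TAM replicate 3. Quantile normalization moved Psmb4 from -0.43 to 0.57 on the log2 scale. That marker scaling put the all-gene median at -1.51 and gave 98.7% of all genes as lower, so values there are to be read against -1.51. Under it the members had a median of -1.73, and these values turned from above to below 0: Psma8 -1.39, Psmb6 -1.11, Psmc1 -1.23, Psmc3ip -1.28, Psmd2 -1.04, Psmd3 -1.15, Psmd4 -1.53, Psmd5 -1.545, Psmd7 -1.31, Psmd8 -1.51, Psmd9 -1.49, Psmd11 -1.42, Psmd14 -1.33, Psme3ip1 -1.50 and Psme4 -1.315. Uncalled genes changed sign in 27 of 432 other values, which include alternatives that left the log2 fold changes as they were. The shift of Psmb10 against Psmb7 was 0.05, -0.23 after quantile normalization and -0.14 to 0.20 without 1 array. The shifts of Psmb8 against Psmb5 and of Psmb9 against Psmb6 lay between -1.21 and -0.94 and between -2.26 and -1.61 under all alternatives run. The cause of these changes was not tested. With the replicate number as a block, 15 members were lower, 12 of them among the 16. Psma1, Psma4, Psmc2 and Psmc5 did not pass there (limma adjusted p = 0.0615, 0.0588, 0.0657 and 0.0696), and Psmb4, Psmb5 and Psmd12 did (adjusted p = 0.0403, 0.028 and 0.0417). Deviations of same-numbered arrays correlated at 0.09, 0.09 and 0.02 over genes, each the highest for its array but small. The groups came from different mice, the labels do not say that the numbers pair arrays, and a pairing was not tested.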
